A study of Mus musculus with 10 samples.

Results

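A set of 10 genes at the centre of the NRF2 antioxidant response were followed through knockdown of the histone demethylase LSD1 in 3T3-L1 cells, a mouse embryonic fibroblast line committed to the fat cell lineage and used here as undifferentiated preadipocytes. The genes were Nfe2l2, Keap1, Hmox1, Srxn1, Prdx1, Txnrd1, Gclc, Gclm, Nqo1 and Aldh3a1. Chosen by name with earlier results of these data known, they were taken with every probe set whose platform annotation holds any of those symbols. They had 23 of the 45037 probe sets. Of these, 18 were annotated to 1 gene alone and covered 9 of the 10 genes, and all 9 passed the filter on dim genes that left 13644 genes to test. The other 5 probe sets were annotated to both Prdx1 and Gm21399 and are given as levels with no test. Cells were transfected with 60 nM of an siRNA against LSD1 (siLsd1) or of a scrambled control siRNA (siC), and each RNA sample was hybridised to its own Affymetrix array. There were 2 siLsd1 and 2 siC arrays at 24 h after transfection, from cells at passage 19, and 3 siLsd1 and 3 siC arrays at 48 h, from cells at passage 21. Both siRNAs were given to whole cultures of 1 cell line, so the siC arrays share the transfection itself with the siLsd1 arrays, and time and passage changed together. The labels call the samples of a group biological replicates. All values are intensities on the linear scale as deposited, and changes are log2 differences between group means. Adjusted p-values are from limma with Benjamini-Hochberg adjustment over the 13644 genes, and a gene is called at an adjusted p under 0.05. Levels of different probe sets cannot be set against each other, so levels are compared within a probe set. The exceptions are the marker levels, summed over probe sets, and the alternatives that average a gene's probe sets. Bright probe sets weigh most in such sums.

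NRF2, the product of Nfe2l2, is a transcription factor that KEAP1 holds for ubiquitination and degradation while the cell is unstressed. Oxidants and electrophiles modify KEAP1, NRF2 accumulates, pairs with a small MAF protein and binds antioxidant response elements in its target genes. Its targets make glutathione, reduce thioredoxin and peroxiredoxins, degrade heme, and detoxify quinones and aldehydes. LSD1, encoded by Kdm1a, removes methyl groups from lysines of histone H3.

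The RefSeq promoter windows (GRCm38.p6, from 250 bases before to 50 bases after a transcript start) are shown for members whose intensity was tested under the knockdown, 3 with and 1 without a match to the antioxidant response element core, so that the sequence can be read beside the values. The table held 9 windows for 7 of the 10 members. Capitals mark matches, on either strand, to the core TGACNNNGC or to TGANTCAGC. The latter is a MAF-type element of the same length, whose letters were chosen after the windows were seen. Srxn1 is at chr2:152105274-152105573 on the plus strand, Gclm at chr3:122245307-122245606 on the plus strand, Txnrd1 (1 of its 3 windows) at chr10:82858956-82859255 on the plus strand, and Nqo1 at chr8:107403156-107403455 on the minus strand.
Srxn1: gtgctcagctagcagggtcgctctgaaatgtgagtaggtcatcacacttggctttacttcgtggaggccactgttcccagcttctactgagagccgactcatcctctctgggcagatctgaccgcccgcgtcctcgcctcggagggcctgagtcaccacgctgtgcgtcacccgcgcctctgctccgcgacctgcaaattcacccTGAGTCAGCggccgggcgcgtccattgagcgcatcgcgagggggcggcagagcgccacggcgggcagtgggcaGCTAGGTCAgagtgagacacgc
Gclm: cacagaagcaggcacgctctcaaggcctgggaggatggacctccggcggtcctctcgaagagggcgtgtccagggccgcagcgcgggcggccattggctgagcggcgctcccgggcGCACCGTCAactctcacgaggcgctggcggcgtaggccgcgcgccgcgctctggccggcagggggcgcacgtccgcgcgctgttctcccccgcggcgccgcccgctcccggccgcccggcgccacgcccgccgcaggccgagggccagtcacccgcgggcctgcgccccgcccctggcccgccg
Txnrd1: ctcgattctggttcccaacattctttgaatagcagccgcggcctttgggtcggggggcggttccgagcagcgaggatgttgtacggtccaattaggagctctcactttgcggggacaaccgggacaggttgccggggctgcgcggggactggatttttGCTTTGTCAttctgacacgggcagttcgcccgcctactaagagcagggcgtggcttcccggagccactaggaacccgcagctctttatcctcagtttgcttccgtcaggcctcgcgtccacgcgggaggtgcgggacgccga
Nqo1: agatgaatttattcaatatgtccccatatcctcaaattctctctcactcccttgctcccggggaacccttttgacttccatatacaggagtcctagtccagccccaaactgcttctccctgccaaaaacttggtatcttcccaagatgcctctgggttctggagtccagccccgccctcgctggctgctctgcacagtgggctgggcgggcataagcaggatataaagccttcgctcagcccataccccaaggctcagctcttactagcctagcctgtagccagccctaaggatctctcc
The core was present in 5 of the 9 windows, those of Nfe2l2, Srxn1, Gclm, Prdx1 and Txnrd1, and in 12.4% of the 32851 promoter windows in the table. Counted from the transcript start, its first base lay at -240 for Nfe2l2, 29 for Srxn1, -134 for Gclm, -133 for Prdx1 and -92 for the Txnrd1 window shown, on the opposite strand in all but Nfe2l2. The MAF-type letters were found at -45 for Srxn1 and at -133 for Prdx1, where they overlap the core, and in 1.19% of all windows. The AP-1 letters TGACTCA, which overlap the MAF-type letters in both promoters, occurred in the windows of Srxn1 (at -102 and -45) and Prdx1 (at -237 and -131) and in 5.2% of all windows. The windows of Nqo1 and Keap1 held none of the 3 sets of letters, which says only that these letters are not within these 300 bases.

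The knockdown and the arrays were checked first. Kdm1a read 971 and 1001 on the siLsd1 arrays at 24 h, against 1559 and 1621 on the siC arrays, and 897 to 1352 on the siLsd1 arrays at 48 h, against 1596 to 1787 on the siC arrays. It was lower by 0.69 on the log2 scale at 24 h (a 1.61-fold difference, adjusted p 0.0473) and by 0.55 at 48 h (1.46-fold, adjusted p 0.0338). The 24 h call was lost without any 1 of the 24 h or siC 48 h arrays (adjusted p 0.0662 to 0.252), with all probe sets tested, with no dim filter, with no intensity trend and with the replicate block. The 48 h call was lost without any 1 of the 24 h or siC 48 h arrays (0.0562 to 0.115), with no trend, with the block and with the 48 h arrays fitted alone. One array stood apart: over 6943 well expressed genes, replicate 3 of siLsd1 at 48 h differed from its replicates with an SD of 0.441 and 0.439 of the log2 difference, where the other within-group pairs had SDs of 0.0892 to 0.205. Its SD from the siLsd1 arrays of 24 h was 0.353 and 0.361, against 0.431 to 0.452 for its replicates. Its Kdm1a level of 897 was the lowest of all arrays, and without it the Kdm1a difference at 48 h was -0.35. The marker genes of preadipocytes and fibroblasts that had a probe set (7 of 8) summed to 40260 to 41214 on siLsd1 and 45302 to 46011 on siC arrays at 24 h, and to 33836 to 45240 on siLsd1 and 48154 to 48316 on siC arrays at 48 h. Of 15 markers of mature fat cells, macrophages, endothelium and epithelium, 14 had a probe set and 8 of those did not pass the dim filter. They summed to 467 to 532 on siLsd1 and 471 to 473 on siC arrays at 24 h, and to 477 to 544 on siLsd1 and 489 to 537 on siC arrays at 48 h, and none of the 6 tested was called between siLsd1 and siC. Of the 7 preadipocyte and fibroblast markers, 1 was called lower at 24 h, 1 at 48 h and 3 on average, and none higher. Of all tested genes 2.79%, 6.67% and 13.7% were called lower. The median log2 changes of the 7 were -0.32, -0.44 and -0.36, against -0.02 each time over all tested genes. The part of these marker differences in the results was not tested. In whole cultures, fewer cells of a type and less RNA per cell cannot be told apart.

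Most of the antioxidant genes were higher after LSD1 knockdown, while the aldehyde dehydrogenase gene Aldh3a1 was lower. On the brightest probe set of each gene, the largest increases among the 9 tested genes were in heme oxygenase (Hmox1), sulfiredoxin (Srxn1) and the glutamate-cysteine ligase modifier (Gclm). The dimmer Gclc probe set had a log2 change of 0.91 at 48 h, above the 0.70 of Srxn1. Taking the mean of the knockdown effect at both times, 6 of the 9 genes tested rose and 1 fell. Of all tested genes 10.1% rose and 13.7% fell. The set was chosen with earlier results of these data known, so such shares describe it and are not an independent test. Hmox1, Srxn1, Gclm, Txnrd1, Gclc and Nfe2l2 rose, Aldh3a1 fell, and Nqo1 and Keap1 were not called. At 24 h, 2 of the 9 rose (Hmox1 and Srxn1) and none fell, where 2.60% of all genes rose and 2.79% fell. At 48 h, 4 rose (Hmox1, Srxn1, Gclm and Txnrd1) and 1 fell (Aldh3a1), where 6.00% rose and 6.67% fell. The median log2 change of the 9 genes was 0.32 at 24 h, 0.38 at 48 h and 0.39 when both were averaged, against -0.02, -0.02 and -0.02 over all tested genes. On the probe set that stood for each gene, the siLsd1 arrays lay above all siC arrays of their time for 8 genes and below for 1 at 24 h, and above for 6 and below for 1 at 48 h. Over all tested genes the arrays did not overlap for 27.5% (above) and 33.9% (below) at 24 h, and for 16.6% and 20.9% at 48 h. The same 6 genes lay above at both times, and 1 lay below, where 11.8% and 15.7% of all tested genes did so.

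**Figure D1:**
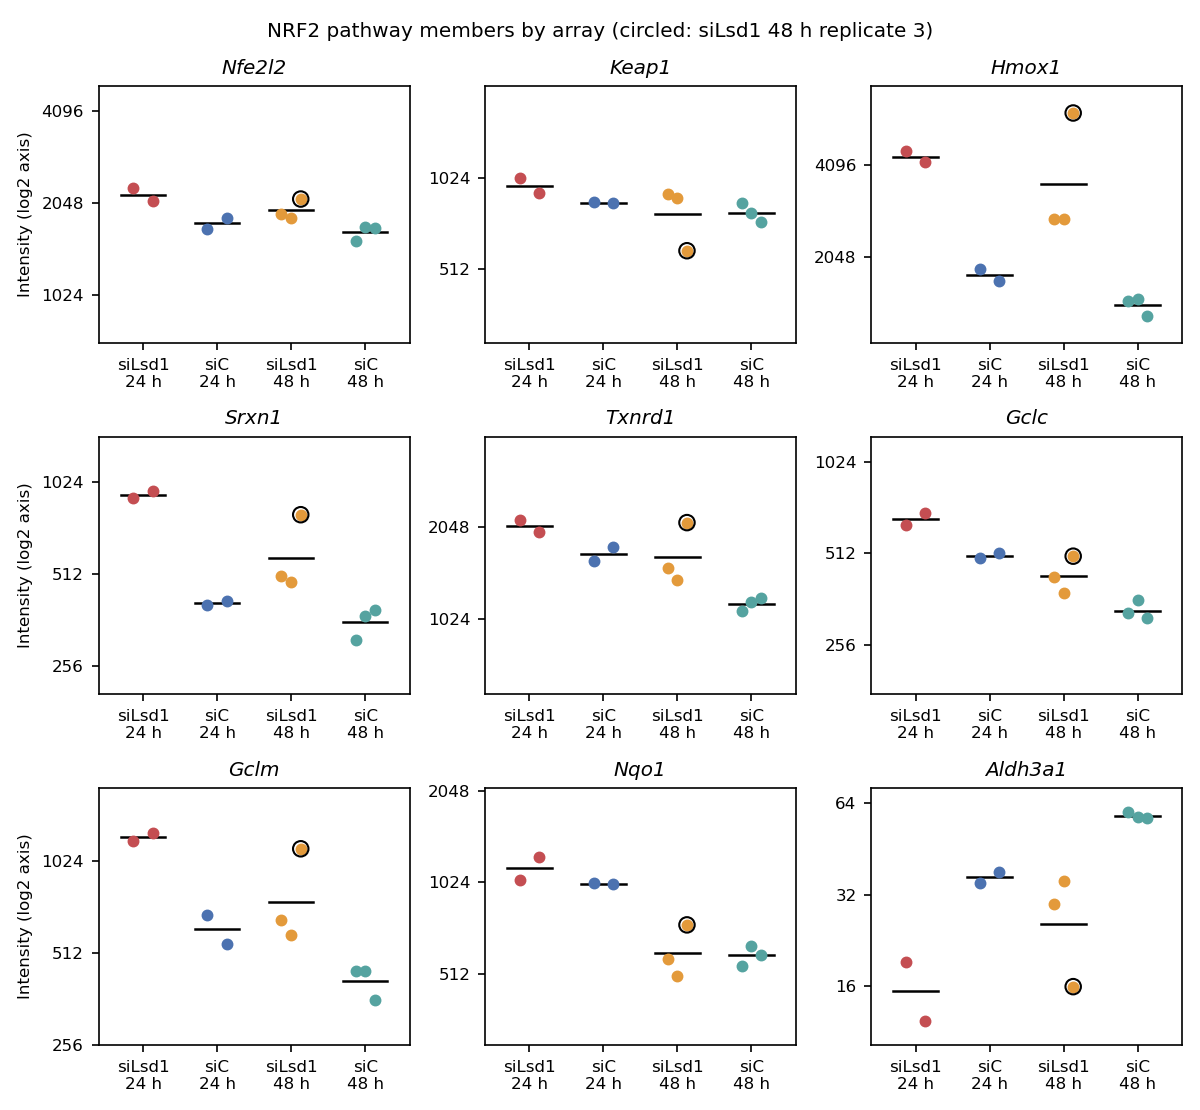
Intensity of the 9 tested genes on each of the 10 arrays (1 probe set per gene, log2 axis of the same span in every panel), with siLsd1 left of siC at each time and a bar at the mean of the log2 values. Hmox1, Srxn1 and Gclm show siLsd1 points above every siC point at both times, Aldh3a1 shows them below, and the circled array, replicate 3 of siLsd1 at 48 h, lies far from its replicates in several panels.

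The calls per time depended on single arrays, for the members and for all tested genes. With 1 array left out, calls over all genes at 48 h ran from 382 to 2473 (1728 as reported). Shares of all genes are given here only for replicate 3 of siLsd1 at 48 h. The member counts with another array left out are therefore not a result about the members. Without replicate 3 of siLsd1 at 48 h, 6 genes rose and 1 fell at 24 h (Nfe2l2, Txnrd1, Gclc, Gclm and Aldh3a1 joined Hmox1 and Srxn1), where 10.1% of all genes rose and 15.3% fell. At 48 h without it, 5 rose and 1 fell, Gclc being added (8.16% and 9.96% of all genes), and for the mean of both times Keap1 was added (14.5% and 19.3%). Leaving out any 1 of the 4 arrays of 24 h left 0 calls at 24 h, and leaving out replicate 1, 2 or 3 of siC at 48 h left 1. At 48 h the 5 calls became 2 without any 1 of the 24 h arrays, 1 without replicate 1 or 2 of siC and 0 without replicate 3 of siC. The 7 calls for the mean of both times became 4 without replicate 1 of siC at 24 h and stayed between 5 and 8 without any other array. Hmox1, Srxn1, Gclm and Aldh3a1 kept that call with every array left out in turn.

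Among the regulators, Nfe2l2 was slightly higher after knockdown and Keap1, its repressor, was not called. Nfe2l2 read 2291 and 2083 on siLsd1 arrays at 24 h, against 1686 and 1828 on siC arrays. At 48 h it read 1879, 1835 and 2111 on siLsd1 arrays, against 1540, 1710 and 1693 on siC arrays. The siLsd1 arrays were the higher ones at both times with no overlap. The log2 change was 0.32 at 24 h (SE 0.10, adjusted p 0.0921) and 0.24 at 48 h (SE 0.08, adjusted p 0.0761), and for the mean of both times Nfe2l2 rose by 0.28 (SE 0.06, adjusted p 0.0130), a 1.21-fold increase. That call was lost without replicate 1 of siC at 24 h (adjusted p 0.0620) and without replicate 1 of siLsd1 at 24 h (adjusted p 0.0745), and when its probe sets were averaged (0.28, adjusted p 0.106). A dimmer probe set of Nfe2l2 read 71.4 on both siLsd1 arrays at 24 h, against 84.8 and 65.1 on siC arrays, and 36.4, 40.2 and 56.4 on siLsd1 arrays at 48 h, against 21.8, 33.6 and 30.8 on siC arrays. It overlapped at 24 h and lay above siC at 48 h (log2 change 0.62, adjusted p 0.110 over 26208 probe sets).

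Keap1 read 1019 and 913 on siLsd1 arrays at 24 h, against 849 and 844 on siC arrays. The 48 h levels were 908, 877 and 590 on siLsd1 arrays, against 844, 785 and 732 on siC arrays. Replicate 3 of siLsd1 had the lowest level of all arrays, and its replicates lay above all siC arrays. The log2 change was 0.19 at 24 h (95% interval -0.22 to 0.59, adjusted p 0.588) and -0.02 at 48 h (-0.35 to 0.32, adjusted p 0.956). Without replicate 3 it was 0.18 at 48 h (adjusted p 0.119) and 0.19 for the mean of both times (adjusted p 0.0230), a rise. The other Keap1 probe set overlapped at both times, with 184 and 151 on siLsd1 arrays at 24 h, against 173 and 158 on siC arrays, and 104 to 162 on siLsd1 arrays at 48 h, against 111 to 158 on siC arrays. With array weights Keap1 rose by 0.17 at 48 h (adjusted p 0.0447) and by 0.18 averaged over both times (0.0186).

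Hmox1 encodes the inducible heme oxygenase, which opens the heme ring to give biliverdin, carbon monoxide and free iron. It read 4555 and 4187 on siLsd1 arrays at 24 h, against 1877 and 1707 on siC arrays. By 48 h it read 2732, 2740 and 6081 on siLsd1 arrays, against 1472, 1490 and 1313 on siC arrays. Every siLsd1 array was above every siC array of either time, and the 6081 of replicate 3 was the highest level of all. Hmox1 rose by 1.29 at 24 h (SE 0.31, adjusted p 0.0423) and by 1.33 at 48 h (SE 0.25, adjusted p 0.0132). The mean rise over both times was 1.31 (SE 0.20, adjusted p 0.00230), a 2.47-fold increase. Without replicate 3 the rise at 48 h was 0.94. The 24 h call was lost without any 1 of the 24 h arrays (adjusted p 0.164 to 0.263) or of the siC arrays of 48 h (0.0659 to 0.0757), and the 48 h call without replicate 3 of siC (0.0509) or with the 48 h arrays fitted alone (0.0616). Further settings that ended the 24 h call were testing every probe set (0.0606), probe sets averaged (0.0547), no dim filter (0.0515), no trend (0.0839) and the replicate block (0.0903).

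Srxn1 encodes sulfiredoxin, which returns over-oxidised peroxiredoxins to their active form. Its brightest probe set read 906 and 954 on siLsd1 arrays at 24 h, against 405 and 417 on siC arrays. After 48 h it read 503, 481 and 800.3 on siLsd1 arrays, against 312, 372 and 391 on siC arrays. No siLsd1 array overlapped siC, and replicate 3 at 48 h lay near the 24 h knockdown arrays. Srxn1 rose by 1.18 at 24 h (SE 0.22, adjusted p 0.0152) and by 0.70 at 48 h (SE 0.18, adjusted p 0.0323). The mean rise over both times was 0.94 (SE 0.14, adjusted p 0.00195), a 1.92-fold increase. The 24 h call was lost without any 1 of the 24 h arrays (adjusted p 0.0975 to 0.128) and with its probe sets averaged (0.72, 0.0683). The 48 h call was lost without any 1 of the 24 h arrays (0.0544 to 0.0587) or of the siC arrays of 48 h (0.0681 to 0.103), with no trend (0.0590) and with the 48 h arrays fitted alone (0.102), and without replicate 3 of siLsd1 the 48 h rise was 0.46 (adjusted p 0.0061).

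The other probe sets of Srxn1 were read separately. One read 172 and 178 on siLsd1 arrays at 24 h, against 89.7 and 103 on siC arrays, and 87.7, 94.2 and 154 on siLsd1 arrays at 48 h, against 51.3, 54.5 and 56.3 on siC arrays. Another read 286 and 316 on siLsd1 arrays at 24 h, against 175 and 157 on siC arrays, and 170, 158 and 314 on siLsd1 arrays at 48 h, against 104, 120.0 and 105 on siC arrays. Neither overlapped at either time, and both rose at 48 h in the fit of all probe sets, by 1.01 (adjusted p 0.0204) and 0.89 (adjusted p 0.0429). The last, dim probe set (28.5 and 29.3 on siLsd1 arrays at 24 h, against 30.6 and 28.7 on siC arrays) overlapped at both times, with log2 changes of -0.03 and -0.14.

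Prdx1, the abundant cytosolic peroxiredoxin that reduces hydrogen peroxide, could be read only through the 5 probe sets annotated to Prdx1 and Gm21399 together. The probe set that differed most read a mean of 6403 ± 277 on siLsd1 arrays at 24 h (SD, n = 2), against 4765 ± 69.7 on siC arrays (n = 2), and 5854 ± 382 on siLsd1 arrays at 48 h (n = 3), against 4950 ± 110.0 on siC arrays (n = 3). On all 5 probe sets every siLsd1 array was above every siC array of its time. The 5 share their annotation and RNA samples, so they are not separate observations. Over all tested genes the siLsd1 arrays lay above without overlap for 27.5% at 24 h, 16.6% at 48 h and 11.8% at both. The ratio of means was 1.21 to 1.34 at 24 h and 1.08 to 1.18 at 48 h. These differences were not tested, and the share of the signal due to each gene cannot be told apart.

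Txnrd1 encodes cytosolic thioredoxin reductase, which uses NADPH to keep thioredoxin reduced. It read 2163 and 1967 on siLsd1 arrays at 24 h, against 1585 and 1760 on siC arrays. The levels at 48 h were 1503, 1368 and 2113 on siLsd1 arrays, against 1079.8, 1163 and 1197 on siC arrays. The arrays did not overlap at either time, and replicate 3 was the highest of its group. The log2 change was 0.30 at 24 h (SE 0.17, adjusted p 0.334). At 48 h Txnrd1 rose by 0.51 (SE 0.14, adjusted p 0.0424), and for the mean of both times by 0.41 (SE 0.11, adjusted p 0.0261). The 48 h call was lost without any 1 of the 24 h arrays or of the siC arrays of 48 h (adjusted p 0.0644 to 0.120), and the call for the mean of both times without any 1 of the 24 h arrays (0.0579 to 0.109) or without replicate 1 or 2 of siC at 48 h (0.0552 and 0.0542). Averaging its 3 probe sets ended the 48 h call (0.34, adjusted p 0.301) and the call for the mean of both times (0.38, 0.123), and so did fitting with no intensity trend (0.0767 and 0.0514). Further settings that ended the 48 h call were testing every probe set (0.0542), no dim filter (0.0519), the replicate block (0.0593) and the 48 h arrays fitted alone (0.112). The other probe sets of Txnrd1 were dim, at 23.0 to 38.5 and 17.1 to 30.9 at 24 h and at 16.3 to 29.8 and 8.58 to 20.5 at 48 h, and were not called.

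**Figure D2:**
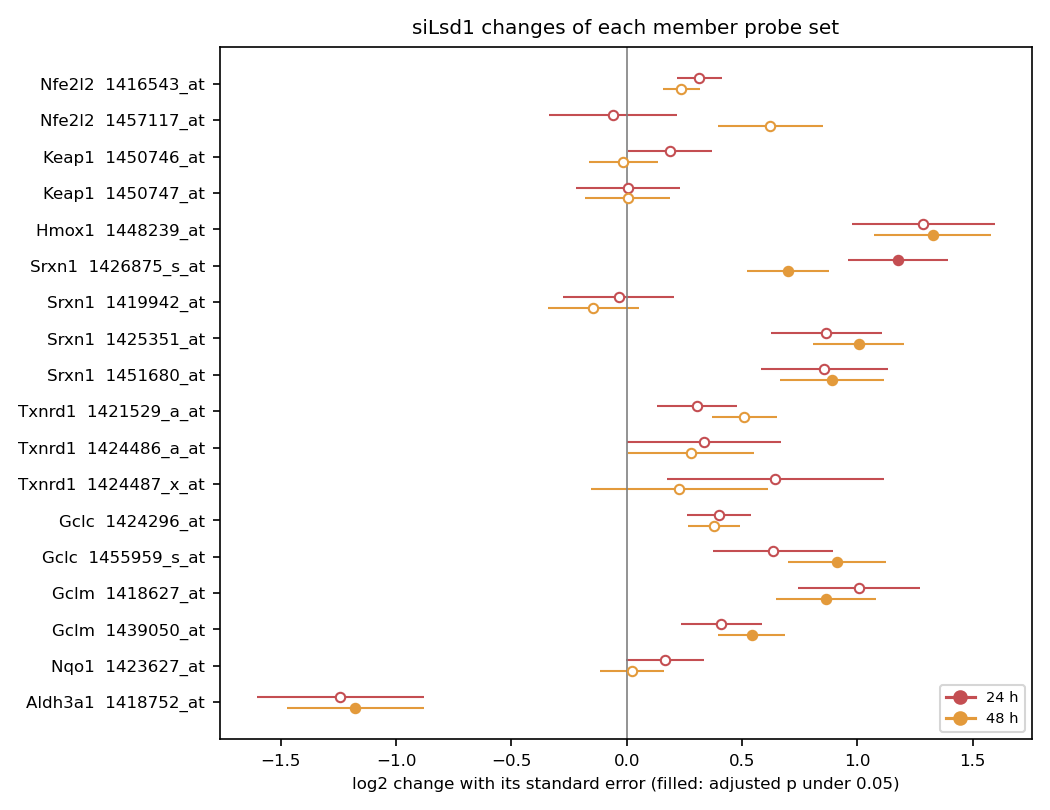
Log2 change after LSD1 knockdown of the 18 single-gene member probe sets, at 24 h (upper mark of each pair) and 48 h (lower mark), with the standard error as a horizontal bar and filled marks for an adjusted p under 0.05 over 26208 probe sets. The Srxn1, Gclc and Gclm probe sets lie right of zero apart from the dim Srxn1 set at -0.03 and -0.14, and Aldh3a1 lies left of zero.

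The genes for glutathione synthesis were higher after knockdown. Gclm encodes the modifier subunit of glutamate-cysteine ligase, which makes the rate-limiting step, and Gclc the catalytic subunit. Gclm read 1190.5 and 1269 on siLsd1 arrays at 24 h, against 682 and 549 on siC arrays. Its levels at 48 h were 654, 585 and 1124 on siLsd1 arrays, against 446, 448 and 358 on siC arrays. The siLsd1 arrays were the higher ones at both times, with replicate 3 at the level of the 24 h arrays. The log2 change at 24 h was 1.01 (SE 0.26, adjusted p 0.0549), and Gclm rose by 0.86 at 48 h (SE 0.21, adjusted p 0.0316) and by 0.93 as the mean over both times (SE 0.17, adjusted p 0.00505). Without replicate 3 of siLsd1 at 48 h, the 48 h change was 0.58 (adjusted p 0.0065) and the 24 h change was called (adjusted p 0.00024), as it was without replicate 2 of siLsd1 at 48 h (0.0426). The 48 h call was lost without either siLsd1 array of 24 h (0.0571) or any 1 of the siC arrays of 48 h (0.0767 to 0.0993), with no trend (0.0594), with the replicate block (0.0722) and with the 48 h arrays fitted alone (0.0958). The other Gclm probe set read 252 and 270 on siLsd1 arrays at 24 h, against 178 and 217 on siC arrays, and 188, 196 and 226 on siLsd1 arrays at 48 h, against 121, 133 and 168 on siC arrays, again with no overlap, and it rose at 48 h.

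Gclc read 636 and 695 on siLsd1 arrays at 24 h, against 494 and 514 on siC arrays. By 48 h its levels were 427, 379 and 501 on siLsd1 arrays, against 326, 359 and 314 on siC arrays. The arrays did not overlap at either time. The log2 change was 0.40 at 24 h (SE 0.14, adjusted p 0.117) and 0.38 at 48 h (SE 0.11, adjusted p 0.0505), and for the mean of both times Gclc rose by 0.39 (SE 0.09, adjusted p 0.0119). That call was lost without replicate 1 of siC at 24 h (0.0527) and without replicate 2 of siLsd1 at 24 h (0.0587). The other Gclc probe set read 668 and 752 on siLsd1 arrays at 24 h, against 462 and 451 on siC arrays, and 397, 411 and 755 on siLsd1 arrays at 48 h, against 242, 269 and 284 on siC arrays. It too did not overlap, and it rose by 0.91 at 48 h (adjusted p 0.0338). With both probe sets averaged, Gclc rose by 0.65 at 48 h (adjusted p 0.0357).

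Of the genes that detoxify quinones and aldehydes, Nqo1 was not called in any knockdown comparison in the fit reported, and Aldh3a1 was lower. Nqo1 encodes the NADPH quinone reductase that is widely used as a readout of NRF2. It read 1042 and 1244 on siLsd1 arrays at 24 h, against 1019 and 1009.8 on siC arrays. After 48 h the levels were 575, 503 and 743 on siLsd1 arrays, against 546, 634 and 593 on siC arrays. The siLsd1 arrays lay just above the siC arrays at 24 h and overlapped them at 48 h. The log2 change was 0.17 at 24 h (95% interval -0.21 to 0.54, adjusted p 0.605) and 0.02 at 48 h (-0.28 to 0.33, adjusted p 0.931). Without replicate 3 the 48 h change was -0.13 (adjusted p 0.377), and with array weights Nqo1 fell by 0.21 at 48 h (adjusted p 0.0457). The interval for the mean of both times ran from -0.15 to 0.33, below the log2 changes of 1.31, 0.94 and 0.93 measured for Hmox1, Srxn1 and Gclm, a difference between genes that was not tested.

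Aldh3a1 encodes an aldehyde dehydrogenase that oxidises lipid aldehydes and is best known from the cornea. It read 19.2 and 12.4 on siLsd1 arrays at 24 h, against 34.9 and 38.1 on siC arrays. The readings at 48 h were 29.9, 35.5 and 15.98 on siLsd1 arrays, against 59.6, 57.6 and 57.0 on siC arrays. Every siLsd1 array was below the siC arrays of its time, and replicate 3 was again near the 24 h arrays. The log2 change at 24 h was -1.24 (SE 0.36, adjusted p 0.0774), and Aldh3a1 fell by 1.18 at 48 h (SE 0.30, adjusted p 0.0325) and by 1.21 as the mean over both times (SE 0.23, adjusted p 0.00649). Its knockdown levels lie near 18.4, the mean intensity of the dim filter. With 16 added to every intensity before the log, the change was -0.73 at 24 h and -0.81 at 48 h. The 48 h call was lost without either siC array of 24 h (adjusted p 0.0538 and 0.0539) or any 1 of the siC arrays of 48 h (0.0849 to 0.100), with the replicate block (0.0610) and with the 48 h arrays fitted alone (0.0814), and without replicate 3 of siLsd1 the change was -0.83.

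**Figure D3:**
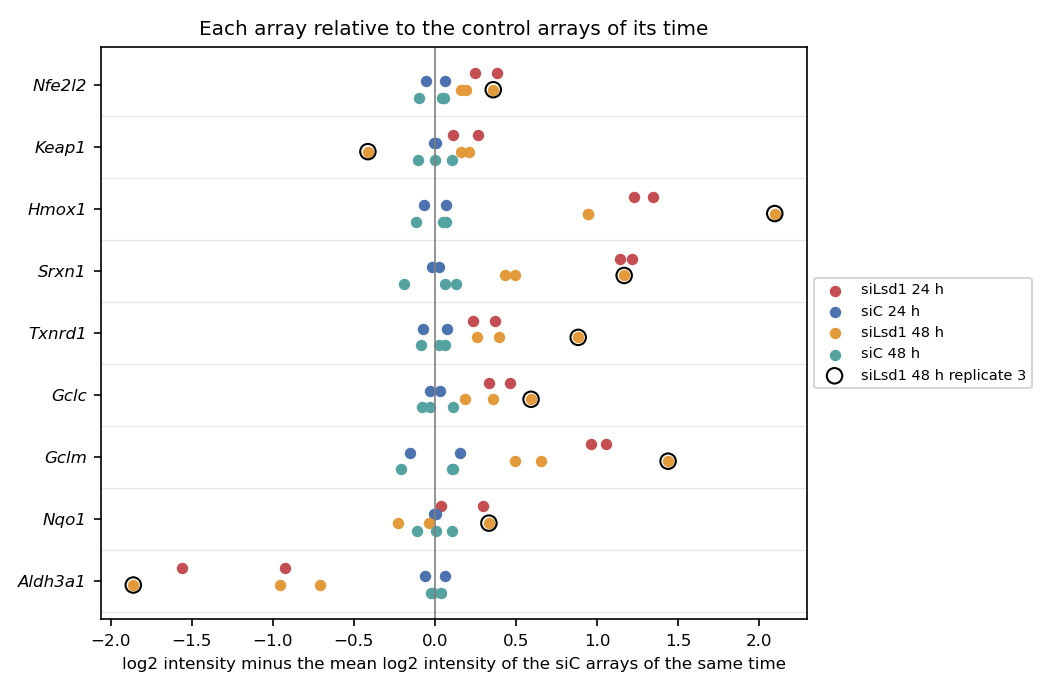
Log2 intensity of each array minus the mean of the siC arrays of its time, for the 9 tested genes, with siLsd1 rows above siC rows at each time and replicate 3 of siLsd1 at 48 h circled. The circled array lies beyond its replicates in the direction of the knockdown change for Hmox1, Srxn1, Gclm, Txnrd1, Gclc and Nfe2l2 (higher) and Aldh3a1 (lower), and on the other side of zero from them for Keap1 and Nqo1.

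Replicate 3 of siLsd1 at 48 h exceeded the mean log2 level of its replicates by 1.15 for Hmox1, 0.86 for Gclm, 0.70 for Srxn1, 0.56 for Txnrd1, 0.47 for Nqo1, 0.32 for Gclc and 0.18 for Nfe2l2. It was below them by 1.03 for Aldh3a1 and by 0.60 for Keap1 (log2 differences of -1.03 and -0.60). For 6 of the 9 genes (Nfe2l2, Hmox1, Srxn1, Txnrd1, Gclm and Aldh3a1) its level was nearer to the mean of the siLsd1 arrays of 24 h than to that of its own replicates, and for Keap1, Gclc and Nqo1 it was nearer to its replicates. The matching share of all tested genes was not computed. Over 6943 well expressed genes, the array's SD was 0.353 and 0.361 from the siLsd1 arrays of 24 h, against 0.441 and 0.439 from its replicates. Whether this array differs in treatment or in handling was not tested.

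The knockdown change was then compared between the times. None of the 9 genes was called as different between 48 h and 24 h in limma's test of that difference, and none of the 13644 genes was (0%), with 896 genes and 0 members at an unadjusted p under 0.05. Srxn1 had the smallest p among the members, with a log2 change smaller by 0.48 at 48 h (-0.48, SE 0.28, adjusted p 0.872). Without replicate 3 of siLsd1 at 48 h this difference was -0.71 (adjusted p 0.0334), the only member called there, where 1.08% of all genes had a higher and 0.396% a lower change at 48 h. The same difference on the other Srxn1 probe sets was 0.14, 0.03 and -0.11.

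In the control cells alone, several of the same genes were lower at 48 h and passage 21 than at 24 h and passage 19. Of the 9 genes, 3 fell and none rose, where 12.2% of all tested genes fell and 12.0% rose. Nqo1 averaged 591 ± 44.0 at 48 h (SD, n = 3) and 1015 ± 6.68 at 24 h (n = 2), and fell by 0.78 on the log2 scale (SE 0.15, adjusted p 0.00539). Gclc averaged 333 ± 23.0 at 48 h and 504 ± 14.0 at 24 h and fell by 0.60 (adjusted p 0.00708), and Txnrd1 averaged 1147 ± 60.3 at 48 h and 1673 ± 124 at 24 h and fell by 0.54 (adjusted p 0.0306). The Nqo1 call held with every array left out in turn, the Gclc call was lost without replicate 2 of siC at 24 h (adjusted p 0.0609), and the Txnrd1 call without any 1 of the siC arrays (0.0575 to 0.182). Gclm (-0.56, adjusted p 0.121), Hmox1 (-0.33, 0.444), Srxn1 (-0.21, 0.501), Keap1 (-0.11, 0.700) and Nfe2l2 (-0.09, 0.503) were not called, nor was Aldh3a1 at 0.67 (adjusted p 0.174). Other probe sets did fall: the dimmer one of Nfe2l2 2.63-fold (adjusted p 0.00434 over 26208 probe sets) and 1 of Srxn1 1.78-fold (adjusted p 0.0243). With each gene's probe sets averaged, Nfe2l2 fell by 0.74 (adjusted p 0.00748) and Gclm by 0.53 (0.0371), and Txnrd1 was not called (0.141). Without replicate 3 of siLsd1 at 48 h, 1 gene rose (Aldh3a1) and 5 fell, with Gclm and Hmox1 added, where 21.1% of all genes rose and 19.3% fell. These siC arrays are also the controls of the knockdown comparisons, and time and passage cannot be told apart.

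The rest of the pathway moved in part. Of 72 other genes of the pathway in lists made by role, 67 were tested. At 24 h, 5 rose and 2 fell. At 48 h, 12 rose and 5 fell, and averaged over both times 18 rose and 11 fell. The matching shares of all tested genes were 2.60% higher and 2.79% lower at 24 h, 6.00% and 6.67% at 48 h, and 10.1% and 13.7% on average. These counts moved with 1 array, and so did the shares of all genes. Without replicate 3 of siLsd1 at 48 h, 16 of the 67 rose and 11 fell at 24 h (10.1% and 15.3% of all genes). At 48 h 15 rose and 10 fell without it (8.16% and 9.96%), and on average 23 rose and 13 fell (14.5% and 19.3%). The 7 calls at 24 h became 0 or 1 without any 1 of the 24 h arrays, 3 or 4 without any 1 of the siC arrays of 48 h, and 27 (16 higher, 11 lower) without replicate 3 of siLsd1 at 48 h. The 17 calls at 48 h became 8 without any 1 of the 24 h arrays, 3 to 6 without any 1 of the siC arrays of 48 h, and 25 without that replicate 3. The 29 calls on average became 16 to 18 without any 1 of the 24 h arrays and 36 without replicate 3. Of the called genes named below, 0 of 7 kept the call at 24 h with every array left out in turn. At 48 h 3 of 16 did (Mafk, Prdx3 and Slc40a1), and on average 14 of 20 did, the exceptions being Mgst3, Sesn1, Txn2, Taldo1, Nqo2 and Cbr1. The median log2 change of the 67 genes was -0.02, 0.06 and 0.06, against -0.02 for all tested genes each time, and the members' medians were 0.32, 0.38 and 0.39.

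Of 13 other regulators tested, 3 rose at 24 h, 3 rose at 48 h, and 4 rose and 1 fell on average over both times. Over all tested genes 2.60% rose and 2.79% fell at 24 h, 6.00% and 6.67% at 48 h, and 10.1% and 13.7% on average. Mafk, a small MAF protein that pairs with NRF2, read 528 and 514 on siLsd1 arrays at 24 h, against 254 and 260.3 on siC arrays, and 321, 304 and 335 on siLsd1 arrays at 48 h, against 213, 215 and 172 on siC arrays. It did not overlap and rose 2.02-fold at 24 h (adjusted p 0.0035) and 1.61-fold at 48 h (adjusted p 0.0054). Maff, another small MAF gene, read 92.2 and 104 on siLsd1 arrays at 24 h, against 36.6 and 55.6 on siC arrays, and rose 2.17-fold there (adjusted p 0.0473, up to 0.269 with 1 array left out). Sqstm1, whose product p62 takes KEAP1 to autophagy, rose 1.72-fold at 24 h (adjusted p 0.0477, up to 0.303 with 1 array left out) and 1.49-fold at 48 h (0.0425, up to 0.127). Nfe2l1, the NRF2 relative that drives proteasome genes, rose 1.58-fold at 48 h (0.0116) and 1.45-fold for the mean of both times.

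**Figure D4:**
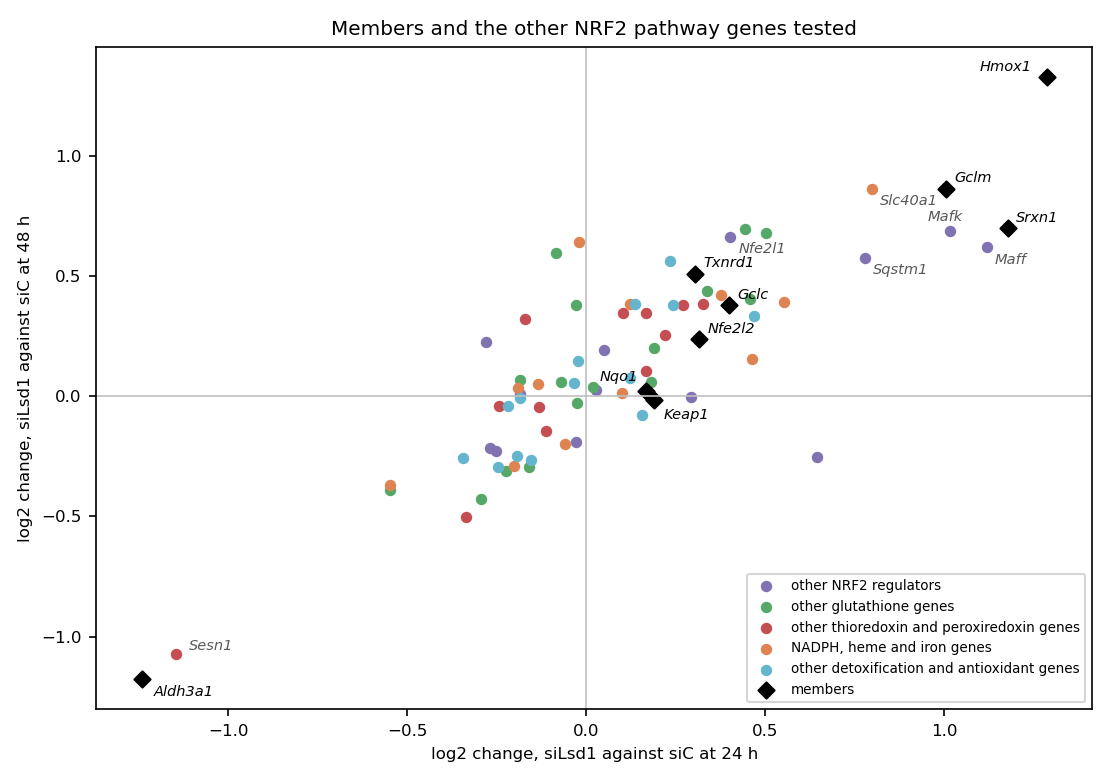
Log2 change after LSD1 knockdown at 24 h (x axis) and 48 h (y axis) of the 9 members (diamonds) and 67 other genes of the pathway, coloured by list. Hmox1, Srxn1 and Gclm lie at the upper right beside Mafk, Maff, Sqstm1 and Slc40a1, Aldh3a1 and Sesn1 lie at the lower left, and most other genes lie near zero.

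Among 12 genes for NADPH, heme and iron, 2 rose and 1 fell at 24 h (2.60% and 2.79% of all tested genes did). At 48 h 3 rose and 2 fell (6.00% and 6.67%), and on average 4 rose and 2 fell (10.1% and 13.7%). Slc40a1, the iron exporter ferroportin, read 1289 and 1339.9 on siLsd1 arrays at 24 h, against 731 and 781 on siC arrays, and 1450.4, 1510.3 and 1651 on siLsd1 arrays at 48 h, against 761, 832 and 949 on siC arrays. It rose 1.74-fold at 24 h (adjusted p 0.0061) and 1.82-fold at 48 h (0.000797), and replicate 3 lay close to its replicates. Blvrb, which encodes biliverdin reductase B, rose 1.38-fold at 24 h (0.0279). Tfrc, the transferrin receptor, rose 1.56-fold at 48 h (0.0433), but its log2 change was -0.02 when its probe sets were averaged. Of the NADPH genes, Taldo1 of the pentose phosphate pathway rose 1.34-fold at 48 h (0.0473) and Pgd 1.39-fold for the mean of both times (0.0092), while Idh1 fell 1.46-fold at 24 h (0.0221) and 1.29-fold at 48 h (0.0297).

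Of 16 other glutathione genes, none was called at 24 h, where 2.60% of all tested genes rose and 2.79% fell. Abcc1 and Gsr had 1.37- and 1.42-fold higher values there (adjusted p 0.0893 and 0.111). At 48 h, 3 rose and 1 fell (6.00% and 6.67% of all tested genes did). For the mean of both times 4 rose and 4 fell (10.1% and 13.7%). Gsr, which reduces oxidised glutathione, rose 1.60-fold at 48 h (0.0161), Slc3a2, a subunit of the cystine transporter, 1.62-fold (0.0202) and Abcc1, which exports glutathione conjugates, 1.32-fold (0.0465), while the glutaredoxin gene Glrx fell 1.24-fold (0.0254). Mgst3, a microsomal glutathione transferase, fell 1.39-fold for the mean of both times (0.0473).

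Of 12 other thioredoxin and peroxiredoxin genes, none was called at 24 h, where 2.60% of all tested genes rose and 2.79% fell. At 48 h 2 rose and 1 fell (6.00% and 6.67% of all tested genes did). For the mean of both times 4 rose, Txn2 among them, and 2 fell (10.1% and 13.7%). Txn1, the cytosolic thioredoxin that Txnrd1 reduces, rose 1.30-fold at 48 h (adjusted p 0.0118), and Prdx3, the mitochondrial peroxiredoxin, fell 1.42-fold (0.0042). Sesn2 rose 1.27-fold at 48 h (0.0329), and the related sestrin gene Sesn1 fell 2.16-fold for the mean of both times (0.0143, up to 0.0640 with 1 array left out). Sesn1 read 154 and 168 on siLsd1 arrays at 24 h, against 352 and 359 on siC arrays, and 378, 348 and 127 on siLsd1 arrays at 48 h, against 532, 521 and 564 on siC arrays. All siLsd1 arrays were the lower ones, and replicate 3 was the lowest of all.

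Of 14 other detoxification and antioxidant genes, 1 fell at 24 h (2.79% of all tested genes did). At 48 h 1 rose and 1 fell, near the 6.00% and 6.67% of all tested genes. For the mean of both times 2 rose and 2 fell, near the 10.1% and 13.7% of all tested genes. Nqo2, a quinone reductase related to Nqo1, rose 1.48-fold at 48 h (adjusted p 0.0418), and Cbr3, a carbonyl reductase, 1.32-fold for the mean of both times (0.0075). Akr1b8, an aldo-keto reductase, fell 1.27-fold at 24 h (0.0428) and 1.19-fold at 48 h (0.0377), and Cbr1 fell 1.17-fold for the mean of both times (0.0490). None of the 67 genes was called for a different knockdown change between the times, and 3 had an unadjusted p under 0.05.

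In the control cells, 5 of the 67 other genes were called higher and 12 lower at 48 h and passage 21 than at 24 h and passage 19, where 12.0% of all tested genes were higher and 12.2% lower. The 17 calls became 5 without replicate 1 of siC at 24 h, 3 without its replicate 2, 11 without replicate 2 of siC at 48 h, and 32 (13 higher, 19 lower, beside 21.1% and 19.3% of all genes) without replicate 3 of siLsd1 at 48 h. Of the genes named here, Ggct and Txn1 alone kept the call with every array left out in turn. Of the 16 other glutathione genes, 4 fell and 2 rose. Those that fell were Ggct, Slc7a11, Slc3a2 and Gsr, by 2.31-, 2.16-, 1.64- and 1.54-fold (adjusted p 0.0032, 0.0284, 0.0122 and 0.0154). Sesn2 fell 1.44-fold and Txn1 1.35-fold, Tfrc 1.74-fold, Me1 1.54-fold, Taldo1 1.45-fold and Tkt 1.18-fold, and the regulators Nfe2l1 and Mafk 1.55- and 1.29-fold. Among those that rose were Cbr1, Akr1b8 and Txnip, by 1.43-, 1.29- and 1.19-fold.

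The genes whose pattern was most like that of Hmox1 and Srxn1 were found by the root mean square difference of the 4 centred log2 group means over the 13644 tested genes. For Hmox1 they were Gsta3 (0.0859), 1700022A21Rik (0.0951), Tmem74 (0.0954) and Gbp8 (0.0983). Gsta3 read 201 and 232 on siLsd1 arrays at 24 h, against 101 and 107 on siC arrays, and 168, 160.0 and 288 on siLsd1 arrays at 48 h, against 62.8, 92.7 and 74.6 on siC arrays. It was higher on every siLsd1 array, with replicate 3 the highest, as for Hmox1. The other 3 had group means between 13.1 and 68.8. For Srxn1 they were Ccl7 (0.0683), Tnfaip3 (0.0687), Mafk (0.0734) and H2-Q5 (0.0861). Ccl7, a chemokine gene, read 5774 and 5524 on siLsd1 arrays at 24 h, against 2735 and 2406 on siC arrays, and 3339.9, 3126 and 4119.7 on siLsd1 arrays at 48 h, against 2113, 1866 and 1920.1 on siC arrays. Its siLsd1 arrays lay above all siC arrays of their time. These likenesses describe 4 group means from 10 arrays and were not tested.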

How the data were processed

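Gene expression was measured on 10 arrays of LSD1 knockdown and control 3T3-L1 cells. The authors deposited 1 intensity per probe set and array on a linear scale (0.76 to 15820.0). The steps from scan to intensity are not given in the sources used here. Array medians were 35.6 to 40.6, and precision is limited by the number of arrays. Gene names came from the platform annotation (34945 with 1 gene, 932 with several, 9160 with none), and RefSeq identifiers matched for 34741. Log2 of the deposited intensity was used with no further normalization. Each gene was represented by its brightest single-gene probe set, and the 25% of genes with the lowest mean (4549 of 18193) were left out. limma 3.58.1 in R 4.3.3 (lmFit, eBayes with an intensity trend) was fitted to all 4 groups together, with 6 residual degrees of freedom, giving 5 comparisons with Benjamini-Hochberg adjustment at 0.05. The same fit on 26208 probe sets gave values per probe set. The code was tested on simulated data. No 2 arrays were identical, and every column matched a labelled sample.

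The members and gene lists were chosen with earlier results of these data known. The genes named were the 10 members, Kdm1a, up to 4 called genes per list and comparison with the largest fold (or, where none was called, values for the 2 with the smallest p), and the 4 genes most like each of Hmox1 and Srxn1. Markers were given as counts and ranges. Motifs were searched on both strands of the RefSeq promoter windows. The alternatives were other probe set rules, other dim filters, quantile normalization, median centring, an offset, a floor, array weights, no trend, a replicate block, separate fits and leaving out each array. The floor at the dim level, and the counts without replicate 3 of siLsd1 at 48 h given beside the main ones, were added after seeing the data.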

Additional observations from a re-analysis of the deposited data

How the results depend on the processing

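With 2 or 3 arrays a group and a shared estimate of the spread, the count of members called moved with 1 array. Calls over all genes moved with the setting too, and reached 3571 at 24 h, 4922 at 48 h and 6192 in the control comparison. As reported they were 736, 1728 and 3302. Shares of all genes are not given setting by setting, so the counts below are not a result about the members. At 24 h the 2 calls became 1 with all probe sets tested, with no dim filter, with no intensity trend and with the replicate block, 0 with each gene's probe sets averaged, and 7 with array weights or the 24 h arrays fitted alone, and ran from 0 to 7 with 1 array left out. At 48 h the 5 calls became 9 with array weights, 2 with no trend or the replicate block, and 0 with the 48 h arrays fitted alone, and ran from 0 to 6 with 1 array left out. For the mean of both times the 7 calls ran from 4 to 8 with 1 array left out. The difference between the times gave 1 call with array weights and 0 to 1 with 1 array left out. The control time comparison gave 6 with array weights or the siC arrays fitted alone (3 as reported), and 1 to 6 with 1 array left out.

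The knockdown change of Keap1 at 48 h, -0.02, turned to 0.018 with quantile normalization, 0.044 with median centring, 0.17 with array weights (adjusted p 0.0447) and up to 0.18 with 1 array left out (0.04 without replicate 1 of siC at 48 h), its lowest value being -0.13. Nqo1 at 48 h, 0.02, turned to -0.21 with array weights (adjusted p 0.0457) and ran from -0.13 to 0.15 with 1 array left out (-0.03 without replicate 1 of siC at 48 h). For the mean of both times Nqo1 turned to -0.022 with array weights. Tfrc at 48 h turned to -0.020 with its probe sets averaged. The cause was not tested.

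Replicate numbers are shared between siLsd1 and siC, but same-numbered arrays did not deviate together. The correlation of their deviations from the group means was -0.19, 0.054 and -0.064 at 48 h. At 24 h it was -0.074, a single value, since with 2 arrays a group both pairs must give the same number. The numbers were therefore not taken as pairs. With the replicate block, the calls were 1 at 24 h and 2 at 48 h, and 7 of the averaged effect. Across all genes, calls ranged from 30 to 3571 at 24 h (736 as reported), 250 to 4922 at 48 h (1728), 1346 to 5602 when both times were averaged (3250), up to 434 for the difference between the times (0), and 1482 to 6192 in the control comparison (3302).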
